A study of Mus musculus with 32 samples.

Results

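Carcinoma was compared with normal mammary gland in 12 of the 32 laser-captured libraries of the series, the 9 whose stage label is carcinoma and the 3 whose stage label is normal, over every gene of the count table. All regions came from mice that were female and carried 3 alleles, MMTV-PyMT, R26-CBW and K8-CreERT2, so the normal gland carried the same oncogene, reporter and recombinase as the carcinoma and lay in a tumour-bearing animal. In MMTV-PyMT a mammary tumour virus promoter drives the polyomavirus middle T oncogene in mammary epithelium. K8-CreERT2 is a tamoxifen-dependent recombinase under a promoter of keratin 8, a luminal cell keratin, and R26-CBW is a multicolour reporter that marks such cells and their progeny. The mice had received 5 mg of tamoxifen at 5 weeks of age, and patches of a single colour were cut from fixed 7 µm cryosections once the tumours had reached their final volume. The labels used here do not give that age. By label, normal 18 lay in the core of a tumour, and normal 28 and 30 were gathered from several places. Carcinoma 06, 37, 53, 07, 38 and 54 came from the tumour core and carcinoma 08, 39 and 55 from its border. Hyperplasia (5 libraries), adenoma (8) and lung metastasis (7) of mice of the same genotype and treatment entered the fit to estimate the spread and are used here to place levels. The series states 3 animals and the labels tie no region to an animal. Some regions therefore share an animal, yet each was tested as a separate replicate. The p-values may be too small or too large for this reason. Which of these holds cannot be told without the animal of each region.

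The normal mammary gland is a tree of ducts in which luminal cells line the lumen and a layer of basal, contractile myoepithelial cells surrounds them, embedded in connective tissue and a fat pad. Middle T has no enzyme activity of its own. It binds Src family kinases, PI3-kinase and Shc at the membrane and so keeps growth factor signalling switched on, and the tumours it drives pass through hyperplasia and adenoma to carcinoma that seeds the lung. Fat cells, fibroblasts, vessels and immune cells lie close to the epithelium in both tissues.

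Total counts were 9646523, 3002492 and 3818207 in normal 18, 28 and 30 and 4443497 to 19564392 in carcinoma. The number of genes with a count was 16823 ± 679 in normal gland (SD, n = 3) and 15834 ± 1336 in carcinoma (n = 9), a difference of -988.2 genes (exact permutation p = 0.273, two-sided). A single gene ID without a symbol held 21.7 to 31.1% of the counts of normal libraries and 11.0 to 53.6% of those of carcinoma libraries. Levels are in CPM, gene counts set relative to library sizes scaled by TMM, and log2 differences are carcinoma minus normal from edgeR. Series of 3 values give normal 18, 28 and 30 in that order and ranges give the lowest and highest carcinoma library. Pairs of means joined by "against" give carcinoma first and normal gland after it, each ± SD (n = 9 and 3). Where leaving out 1 library lowers a mean given this way by over 1.5 times, the mean without it follows. The labelled epithelium was present in each of the 12 libraries: Krt8 stood at 289.6, 231 and 433 CPM in normal 18, 28 and 30 and at 400.4 to 1460.1 CPM (median 697) in carcinoma, and the adhesion molecule Epcam at 293, 298 and 307 CPM and at 334 to 992 CPM (median 509.6).

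Complement factor D (Cfd, chr10:79890853-79892655, build GRCm38.p6), a protease of the alternative complement pathway that fat cells secrete as adipsin, was the only gene that passed the test across all genes, and it fell in carcinoma. Its level was 429, 36.6 and 202 CPM in normal 18, 28 and 30. It had no count in 8 of the 9 carcinoma libraries and stood at 0.904 CPM in carcinoma 07, so the groups did not overlap. The log2 difference was -10.77 (SE 1.70, edgeR quasi-likelihood adjusted p = 0.00454, Benjamini-Hochberg over 19907 genes). For a gene with no count in any of the 9 libraries, the limit is 0.0284 CPM, counting error only. This was 1 gene called of 19907 tested, or 0.00502%, and the next smallest adjusted p was 0.0961. No gene was called higher by edgeR, where 488 genes had a higher and 1138 a lower level at an unadjusted p under 0.05. By the Wald test of DESeq2, 119 genes rose and 58 fell, without Cfd (adjusted p = 0.476), and by limma voom with sample weights 8 rose and 308 fell, with Cfd. The call ended without normal 18 (edgeR adjusted p = 0.117), with carcinoma limited to the core (0.163) and with detected genes per library as covariate (0.111). With DESeq2 size factors in edgeR the genes of unadjusted p under 0.05 split into 219 higher and 1585 lower.

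The other fat cell genes lay on the same side as Cfd in most cases. Of 11 adipocyte genes tested, 9 were fitted lower in carcinoma and 2 higher, with a median log2 of -4.00 beside 0.10 for all genes tested, of which 52.7% were fitted higher. Car3, a carbonic anhydrase abundant in fat, stood at 181, 28.5 and 43.7 CPM in normal gland, had no count in 8 carcinoma libraries and reached 0.839 CPM in carcinoma 07 (edgeR adjusted p = 0.179). The adipokine Retn (resistin) stood at 5.18, 0 and 64.4 CPM and had no count in carcinoma, at least 817-fold lower by means, with carcinoma set to the limit of 3 counts over the group, and at least 91.1-fold without normal 30. Adiponectin (Adipoq) stood at 47.4, 0 and 9.85 CPM, against 0 to 0.847 CPM (median 0) in carcinoma. Fabp4, a fatty acid carrier, and Plin1, a lipid droplet coat protein, also had every carcinoma library below every normal one, and stood at 4.40 ± 4.10 against 99.6 ± 92.4 CPM, normal mean 46.5 without 18 and 0.653 ± 1.70 against 10.7 ± 4.63 CPM. The 2 members fitted higher were the lipid droplet protein Plin4 (13.9 ± 31.3 against 8.03 ± 12.2 CPM, normal mean 0.959 without 30, carcinoma mean 3.53 without 06) and the hormone-sensitive lipase Lipe (11.3 ± 15.5 against 6.95 ± 6.08 CPM, normal mean 4.34 without 18, carcinoma mean 7.02 without 07). All carcinoma libraries lay below all normal libraries for 4 of the 11 members, Cfd, Car3, Fabp4 and Plin1, beside 1.25% of all genes. The summed level of the list was 926, 112 and 488 CPM in normal 18, 28 and 30 and 5.48 to 117 CPM (median 33.4) in carcinoma. Fewer cells of a type and less RNA per cell cannot be told apart in these bulk samples.

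**Figure D1:**
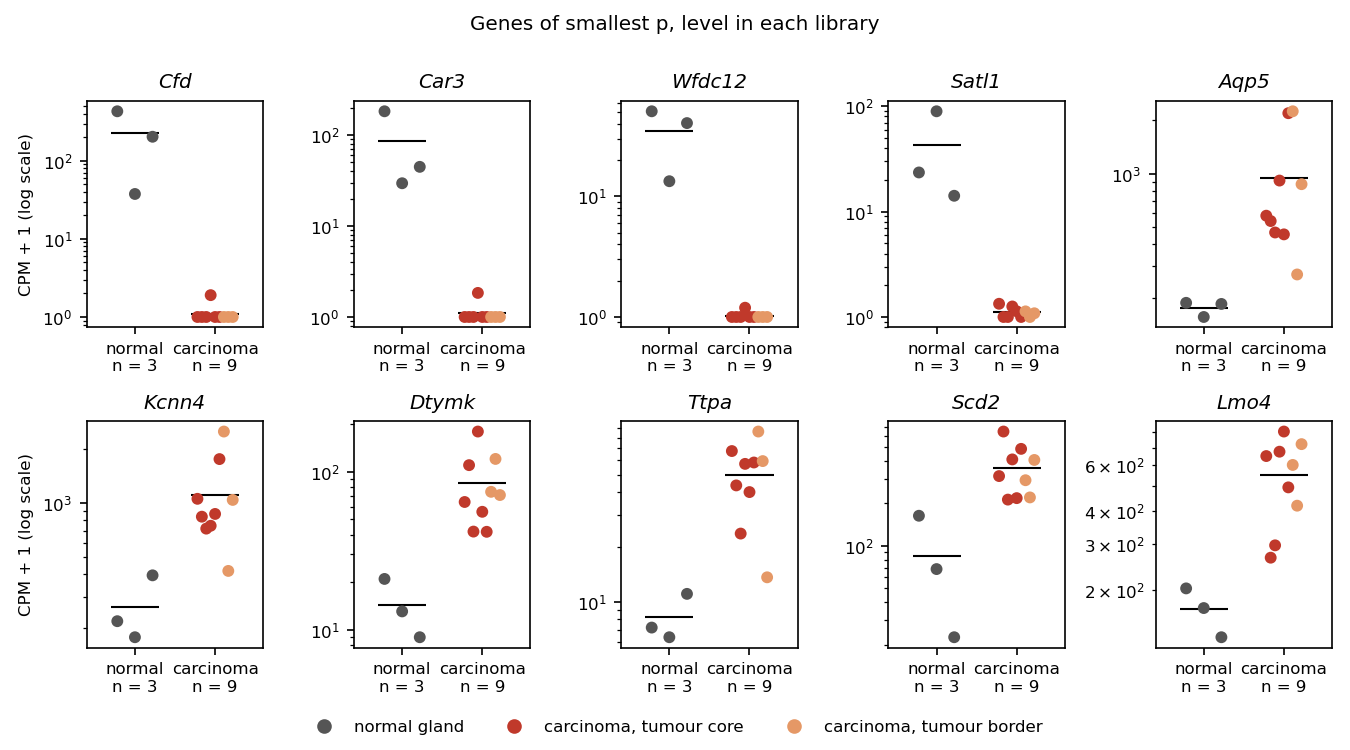
Levels of 10 genes in each of the 12 libraries, as CPM + 1 on a log scale, with 1 dot per library, colours for normal gland, carcinoma core and carcinoma border, and a line at the group mean. Cfd and Car3 are at 0 in 8 of 9 carcinoma libraries, whereas every carcinoma dot of Aqp5, Kcnn4, Dtymk, Ttpa, Scd2 and Lmo4 lies above the normal dots.

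The 8 genes of smallest p on the higher side did not pass and are given as values. Aqp5, a water channel of gland cells (chr15:99591028-99594829), stood at 186, 155 and 184 CPM in normal 18, 28 and 30 and at 269 to 2238 CPM (median 578) in carcinoma (log2 2.43, SE 0.56, edgeR adjusted p = 0.179). Kcnn4, a calcium-activated potassium channel (chr7:24369826-24385212), stood at 218, 178 and 394 CPM and at 417 to 2496 CPM (median 867) (log2 2.07, SE 0.48, edgeR adjusted p = 0.179). For both channels every carcinoma library lay above every normal one, which held for 178 of 19907 genes, or 0.894%. Dtymk, the kinase that makes thymidine diphosphate for DNA synthesis, stood at 20.01, 12.1 and 8.002 CPM in normal gland and 40.7 to 178 CPM (median 70.2) in carcinoma. The vitamin E transfer protein Ttpa stood at 6.21, 5.38 and 10.1 CPM and 12.6 to 85.5 CPM (median 56.4), and the transcription cofactor Lmo4 at 202, 169.8 and 131 CPM and 265 to 805 CPM (median 599.7). These 3 and the desaturase Scd2 (163, 67.5 and 21.5 CPM against 212 to 645 CPM (median 311)) also did not overlap between the groups. Ube2c, which marks mitotic proteins for destruction, and the membrane protein Tmem147 overlapped, with carcinoma at 31.6 to 217 CPM (median 116) and 30.2 to 241 CPM (median 151) and normal gland at 40.6, 13.2 and 12.3 CPM and 43.6, 19.6 and 22.2 CPM. The edgeR adjusted p of these 6 lay between 0.186 and 0.212. Of the 8 genes, the DESeq2 Wald test called 7, all but Lmo4 (adjusted p = 0.213), beside 119 called higher of 19907 genes. Limma voom called none of them (adjusted p 0.125 to 0.294), and neither did edgeR with only the 12 libraries in the fit (0.136 to 0.223). The 8 were picked by their edgeR p in the same counts.

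On the lower side the 7 genes of smallest p after Cfd, among those with a normal mean of at least 20 CPM and 10 counts in 75% of the normal libraries, were Car3 and 6 others nearly without counts in carcinoma. Their normal libraries were uneven. Wfdc12, a small secreted protease inhibitor of the whey acidic protein family, stood at 49.9, 12.4 and 39.6 CPM in normal 18, 28 and 30 and had 3 counts in all of carcinoma. The uncharacterised gene 8430426J06Rik stood at 4.83, 78.8 and 39.8 CPM and had no count in carcinoma, at least 1448-fold lower against the floor of 3 counts and at least 785-fold without normal 28. Olfr787, an olfactory receptor, Satl1, a member of the acetyltransferase family, Dbx1, a homeobox factor of the developing nervous system, and Gje1, a connexin family gene, belong to none of the mammary or stromal lists used here. Olfr787 stood at 3.97, 122 and 6.98 CPM, Satl1 at 22.5, 88.5 and 13.1 CPM, Dbx1 at 3.54, 70.5 and 21.8 CPM and Gje1 at 1.55, 31.5 and 44.7 CPM. In carcinoma these 4 reached at most 0.237, 0.334, 0.696 and 0.387 CPM. None of the 7 passed edgeR over all 32 libraries. With only the 12 libraries, edgeR called Car3, Wfdc12, Olfr787, Satl1 and 8430426J06Rik (adjusted p 0.00399 to 0.0272), beside 7 genes lower of 16700. The DESeq2 Wald test called Wfdc12, 8430426J06Rik, Satl1 and Gje1 (adjusted p 0.000172 to 0.00979), beside 58 lower of 19907. Limma voom called all 7 (adjusted p 5.5e-08 to 0.000224), beside 308 lower. The 7 were picked by their edgeR p in the same counts. Normal 28 was the highest library for Olfr787, Satl1, Dbx1 and 8430426J06Rik, whose normal means were 5.47, 17.8, 12.6 and 22.3 CPM without it and 44.4, 41.4, 31.9 and 41.2 CPM with it. Among the 1138 genes lower at an unadjusted p under 0.05, a single normal library held over 75% of the normal level in 787, normal 28 in 403, normal 30 in 272 and normal 18 in 112. Among the 488 higher ones a single carcinoma library held over 75% of the carcinoma level in 56. These counts cannot be set side by side, since 1 of 3 normal libraries holds a large share more easily than 1 of 9 carcinoma libraries.

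Connective tissue genes were fitted lower in carcinoma without exception in the list, and none passed the edgeR test by itself. All 23 fibroblast and matrix genes were fitted lower (median log2 -1.74, and -2.20 with DESeq2 size factors, a scaling that put the all-gene median at -0.31 in place of 0.10). Over the 25 alternative settings and the reported one, the list's median stayed -2.86 to -1.54 from that of all genes. Fibrillar collagen Col3a1 stood at 705, 110.0 and 369 CPM in normal 18, 28 and 30 and at 1.34 to 362 CPM (median 28.2) in carcinoma, and Col1a1 at 816, 163 and 477 CPM and 4.57 to 667 CPM (median 66.96). Sparc, a matrix-binding glycoprotein, stood at 174 ± 205 against 593 ± 307 CPM, carcinoma mean 109 without 55 and fibronectin (Fn1) at 13.97 ± 12.1 against 71.9 ± 71.8 CPM, normal mean 30.8 without 18. The secreted glycoprotein Fstl1 was the 1 of 23 members whose groups did not overlap, beside 1.25% of all genes, at 155, 101 and 160.2 CPM in normal gland and 2.32 to 63 CPM (median 20.8) in carcinoma. Its edgeR adjusted p was 0.313. The result depended on the tool. Limma voom called Col3a1, Sparc, Col1a1, Fstl1 and Fn1 lower (adjusted p 0.000224 to 0.0226), beside 308 genes lower of 19907. The DESeq2 Wald test called none of them (adjusted p 0.0729 to 0.535).

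The captured carcinoma regions were not alike in connective tissue. The summed level of the 23 fibroblast genes was 6007, 1808 and 3227 CPM in normal 18, 28 and 30, and 4848 CPM in carcinoma 55, a border region, against 137 to 1099 CPM in the other 8. Carcinoma 55 alone lay within the normal range. The carcinoma mean of the sum was 1058 CPM with it and 585 CPM without it, beside a normal mean of 3681 CPM. Normal 18 held the highest sum of the normal libraries, and the normal mean was 2518 CPM without it. Core regions averaged 525 CPM and border regions 2126 CPM.

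Genes that cut, hold and organise the matrix lay on the lower side too. Of 18 matrix proteases and inhibitors 16 were fitted lower (median log2 -1.18), the exceptions being Mmp9, listed at 0 in normal gland and at 0.240 CPM in carcinoma, and the aggrecanase Adamts5 (11.7 ± 18.8 against 5.69 ± 6.19 CPM, normal mean 2.18 without 30, carcinoma mean 5.82 without 38). Mmp2, a gelatinase made largely by fibroblasts, stood at 217, 60.5 and 229 CPM in normal 18, 28 and 30 and 0 to 51.2 CPM (median 8.12) in carcinoma, with no overlap. The protease inhibitor Timp3 stood at 34.5 ± 34.7 against 97.6 ± 41.9 CPM and the plasminogen activator Plau at 0.785 ± 1.09 against 12.4 ± 12.8 CPM, normal mean 5.60 without 18. In the basement membrane, the sheet on which epithelium and vessels rest, 13 of 15 genes were fitted lower (median log2 -0.82). The sheet's linker nidogen 1 (Nid1) stood at 5.95 ± 5.89 against 29.6 ± 37.3 CPM, normal mean 8.14 without 18 and its collagen Col4a2 at 31.8 ± 22.5 against 83.1 ± 31.1 CPM, whereas the laminin chains Lama5 (71.6 ± 36.1 against 35.1 ± 24.2 CPM, normal mean 21.3 without 30) and Lamb2 (41.5 ± 13.7 against 19.3 ± 11.6 CPM, normal mean 12.8 without 18) were the 2 fitted higher. Regulators and markers of epithelial-mesenchymal transition, the programme by which epithelial cells take on a migratory form, were fitted lower in 13 of 15 cases (median log2 -1.70). The repressor Zeb1 stood at 1.04, 33.9 and 64.2 CPM in normal gland and 0 to 55.3 CPM (median 2.93) in carcinoma, the filament protein Vim at 124, 115 and 55.8 CPM and 21.5 to 155 CPM (median 31.7), and the mesenchymal cadherin Cdh11 at 49.7, 4.30 and 34.1 CPM and 0 to 14.6 CPM (median 2.08). For Zeb1, Vim and Cdh11 the groups overlapped. The homeobox gene Prrx1 (12.6 ± 21.04 against 3.63 ± 2.61 CPM, carcinoma mean 7.53 without 53) and the proteoglycan Spock1 (0.960 ± 1.62 against 0.676 ± 0.760 CPM) were the 2 fitted higher. Fibroblasts make most of these gene products too, the fibroblast list was lower in the same libraries, and its part in these differences was not tested.

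Vessel markers were also fitted lower, and mural cell and muscle markers were mixed. Of 13 endothelial genes 12 were fitted lower (median log2 -1.35), with Kdr, a VEGF receptor, as the exception (7.86 ± 14.3 against 4.50 ± 3.22 CPM, carcinoma mean 3.73 without 39). Endomucin (Emcn), a surface sialoprotein of vessels, did not overlap, at 15.01, 9.68 and 24.6 CPM in normal 18, 28 and 30 and 0 to 7.83 CPM (median 1.06) in carcinoma. The angiopoietin receptor Tek stood at 3.40 ± 6.998 against 25.04 ± 30.3 CPM, normal mean 7.56 without 28, carcinoma mean 1.13 without 08 and its relative Tie1 at 0.475 ± 0.464 against 9.68 ± 11.8 CPM, normal mean 2.96 without 28. The junction protein Pecam1 stood at 3.32 ± 2.16 against 5.81 ± 4.80 CPM, normal mean 3.06 without 18, and its fitted sign turned without normal 18. The sum of the endothelial genes was 156, 151 and 232 CPM in normal gland and 38.04 to 138 CPM (median 55.9) in carcinoma, where 9 of 9 libraries lay below the lowest normal one. Among 8 pericyte and smooth muscle genes 5 were fitted lower and 3 higher (median log2 -0.72), with the smooth muscle myosin Myh11 at 2.68 ± 4.87 against 16.8 ± 14.1 CPM, normal mean 8.66 without 30, carcinoma mean 1.10 without 53 and the channel subunit Abcc9 at 5.41 ± 3.66 against 14.7 ± 6.78 CPM. Of 7 skeletal muscle genes, 4 were fitted lower and 3 higher (median log2 -0.61), with the myosin Myh1 at 2.16 ± 3.13 against 6.23 ± 8.25 CPM, normal mean 1.55 without 30, carcinoma mean 1.38 without 53. The fitted sign of Myh1 turned without normal 30.

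**Figure D2:**
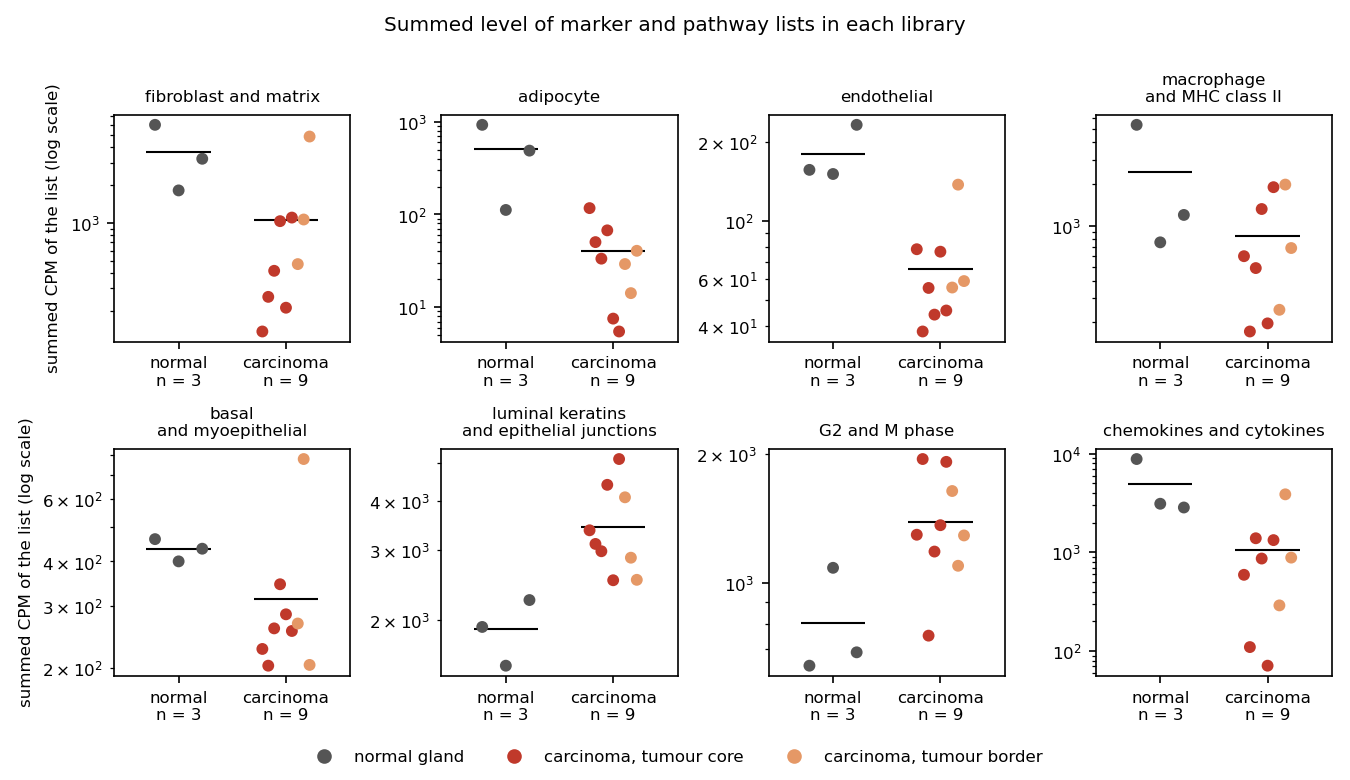
Summed CPM of 8 gene lists in each of the 12 libraries on a log scale, with 1 dot per library and colours for normal gland, carcinoma core and carcinoma border. Carcinoma 55 stands at 4848 CPM for the fibroblast list, within the normal range, and normal 18 at 5347 CPM for the macrophage list, above all other libraries.

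Luminal keratin and junction genes were present in carcinoma at levels like those of normal gland or higher. Of 18 luminal keratin and junction genes 13 were fitted higher and 5 lower (median log2 0.25, turning to -0.17 with DESeq2 size factors, 8 higher and 10 lower). Relative to the median of all genes the list stayed at 0.01 to 0.69 over all settings. Its summed level was 1919, 1531 and 2245 CPM in normal gland and 2519 to 5105 CPM (median 3113) in carcinoma, above every normal library in all 9. The tight junction protein Cldn3 stood at 232, 163 and 239 CPM in normal 18, 28 and 30 and 317 to 1110.1 CPM (median 443) in carcinoma. It and Epcam were the 2 of 18 members with every carcinoma library above every normal one, beside 0.894% of all genes. Krt18, the partner of Krt8, stood at 285, 169 and 439 CPM and 339 to 1189.9 CPM (median 559). E-cadherin (Cdh1) stood at 107, 172 and 130.1 CPM and 49.6 to 205 CPM (median 162), a range that holds all the normal values, and its fitted sign changed with the scaling. The surface protein Cd24a stood at 165, 164 and 95.4 CPM in normal gland and 183 to 592 CPM (median 388) in carcinoma, without overlap (edgeR adjusted p = 0.223).

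Basal and myoepithelial genes, of the layer that surrounds the luminal cells, were mostly fitted lower in carcinoma. Of 14 members 10 were fitted lower (median log2 -1.07), and the list's median stayed -1.74 to -0.29 from that of all genes. Mylk, the kinase that triggers contraction, did not overlap, at 38.6, 62.4 and 25.03 CPM in normal 18, 28 and 30 and 0.669 to 18.98 CPM (median 12.4) in carcinoma. The smooth muscle protein calponin (Cnn1) stood at 8.97, 0.269 and 7.59 CPM and 0 to 0.446 CPM (median 0). The basal keratins Krt14 and Krt5 stood at 20.7 ± 24.6 against 65.7 ± 45.8 CPM, normal mean 40.1 without 30, carcinoma mean 13.3 without 39 and 5.92 ± 9.31 against 13.6 ± 10.3 CPM, normal mean 8.64 without 30, carcinoma mean 3.65 without 07, and the contractile actin Acta2 at 8.67 ± 6.77 against 16.5 ± 5.73 CPM. The 4 members fitted higher were Cdh3, Lgr6, Itgb4 and Itga6, an adhesion protein, a receptor and the chains of a laminin-binding integrin, of which Itgb4 stood at 99.4 ± 106 against 71.1 ± 5.29 CPM, carcinoma mean 65.8 without 39 and Itga6 at 107 ± 33.4 against 104 ± 64.1 CPM, normal mean 67.1 without 18. Carcinoma 39, a border region, held the highest sum of the list, 778 CPM, against 462, 400.3 and 435 CPM in normal gland and a carcinoma median of 259 CPM.

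Among the luminal cell states, hormone-sensing genes showed no common direction. Of 12 members 6 were fitted higher and 6 lower (median log2 0.16, turning to -0.31 with DESeq2 size factors). The oestrogen receptor Esr1 stood at 32.7, 38.5 and 15.6 CPM in normal gland and 8.58 to 88.8 CPM (median 19.3) in carcinoma, a span that holds the normal values, and its sign turned in 6 of the 25 alternatives. The progesterone receptor Pgr stood at 0, 56.8 and 0.821 CPM and 0 to 17.4 CPM (median 0.554), with its sign turned and a normal mean of 0.410 CPM without normal 28, and the prolactin receptor Prlr at 36.9, 169 and 77.97 CPM and 44.1 to 249 CPM (median 120.4), with a sign that turned with DESeq2 size factors. Amphiregulin (Areg), the growth factor through which oestrogen acts on neighbouring cells, stood at 0, 0 and 16.2 CPM and 0 to 6.48 CPM (median 0.337), and its sign turned without normal 30, the only normal library with a count. The luminal factor Gata3 stood at 363 ± 166 against 288 ± 48.3 CPM, with a sign that turned with DESeq2 size factors, and Foxa1, which opens chromatin for the oestrogen receptor, at 1.47 ± 1.99 against 0.233 ± 0.218 CPM. Ly6a, a surface antigen used to sort these cells, stood at 27.7 ± 27.99 against 82.3 ± 88.1 CPM, normal mean 31.5 without 18.

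Luminal progenitor and milk genes, whose lists both hold Csn3, were fitted higher at shares not far above that of all genes. Of 11 luminal progenitor genes 7 were fitted higher (median log2 0.56, 0.19 with DESeq2 size factors), beside 52.7% of all genes. The median lay -0.04 to 0.74 from that of all genes over all settings, and 2 of 9 carcinoma sums lay above the highest normal one. The alveolar factor Elf5 stood at 190.2, 117 and 109.6 CPM in normal 18, 28 and 30 and 118 to 345 CPM (median 201) in carcinoma, and the Notch target Hey1 at 58.2, 50.6 and 80.4 CPM and 17.8 to 479 CPM (median 195). Aldh1a3, an enzyme of retinoic acid synthesis, stood at 6.83 ± 12.02 against 0.453 ± 0.417 CPM, carcinoma mean 2.96 without 53. Of 16 milk and secretion genes 11 were fitted higher (median log2 0.83, 0.43 with DESeq2 size factors, 9 higher and 7 lower), beside the same 52.7%. The median stayed 0.40 to 1.03 above that of all genes over all settings. Of 9 carcinoma sums 3 lay above the highest normal one and 1 below the lowest. The casein Csn3 stood at 5941, 2358 and 959 CPM and 3048 to 11677 CPM (median 5018), and alpha-lactalbumin (Lalba), needed for lactose synthesis, at 807, 597 and 864 CPM and 742 to 5793 CPM (median 1924). Csn1s1, a further casein, stood at 14.5, 5.65 and 4.10 CPM and 0.236 to 1021 CPM (median 34.5), and the casein Csn2 at 0, 0.538 and 0.821 CPM and 0 to 41.1 CPM (median 4.41). The whey protein Wap stood at 116 ± 164 against 43.1 ± 37.1 CPM, normal mean 22.96 without 18, carcinoma mean 70.5 without 37. No member of either list was called or had groups without overlap. Among the 5 milk genes fitted lower was the milk fat globule protein Mfge8 (780.4 ± 862 against 2132 ± 460.2 CPM).

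Genes of cell division lay mostly on the higher side in carcinoma. Of 38 G2 and M phase genes 30 were fitted higher (median log2 0.90, 0.39 with DESeq2 size factors), and the median stayed 0.48 to 1.33 above that of all genes over all settings. None was called by edgeR. The summed level was 641, 1084 and 688 CPM in normal gland and 753 to 1946 CPM (median 1296) in carcinoma, and 8 of 9 carcinoma libraries lay above the highest normal one. Cdca3, which drives entry into mitosis, and the spindle protein Tacc3 were the 2 of 38 members with every carcinoma library above every normal one, beside 0.894% of all genes. Cdca3 stood at 5.003, 0.807 and 0 CPM in normal 18, 28 and 30 and 5.14 to 53.4 CPM (median 32.2) in carcinoma, and Tacc3 at 4.31, 0 and 4.92 CPM and 7.42 to 29.8 CPM (median 14.8). The spindle and survival protein Birc5 stood at 18.8, 18.8 and 18.3 CPM and 11.8 to 339 CPM (median 128), where carcinoma 53 alone lay below the normal values and the other 8 above them. Mki67, a marker of cycling cells, stood at 22.8, 20.98 and 140.2 CPM and 51.3 to 221 CPM (median 97.5), and Top2a, which untangles DNA, at 38.9, 99.8 and 33.7 CPM and 54.05 to 150.3 CPM (median 88.8). The normal values of Mki67 span a wide range and overlap those of carcinoma. The mitotic cyclin Ccnb1 stood at 25.6 ± 21.1 against 23.4 ± 7.23 CPM and its fitted sign changed with the scaling.

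Of 34 genes of DNA replication and S phase 26 were fitted higher (median log2 0.53, turning to -0.02 with DESeq2 size factors, 17 higher and 17 lower). The median stayed 0.21 to 1.07 above that of all genes over all settings, and the summed level lay above the highest normal library in 8 of 9 carcinoma libraries. Lig1, which joins new DNA fragments, stood at 12.3, 5.38 and 15.4 CPM in normal 18, 28 and 30 and 29.3 to 94.5 CPM (median 57.4) in carcinoma, and Uhrf1, which copies DNA methylation onto the new strand, at 4.74, 26.1 and 16.6 CPM and 26.6 to 132 CPM (median 57.4). These were the 2 of 34 members without overlap, beside 0.894% of all genes. Dut, which keeps uracil out of DNA, stood at 51.4 ± 37.3 against 13.1 ± 15.6 CPM, normal mean 4.33 without 30, the DNA precursor enzyme Rrm2 at 44.6 ± 37.2 against 9.43 ± 11.6 CPM, normal mean 2.76 without 18 and the helicase subunit Mcm2 at 39.99 ± 19.2 against 14.4 ± 7.96 CPM. Among 11 genes of D cyclins and the MYC network 8 were fitted higher (median log2 0.76). Cyclin D1 (Ccnd1), which growth factor signals induce, stood at 148, 41.2 and 143 CPM and 128 to 1123 CPM (median 447) (log2 2.16, SE 0.64, edgeR adjusted p = 0.215), and 8 of 9 carcinoma libraries lay above the highest normal one. Myc stood at 11.3, 4.04 and 6.77 CPM and 2.97 to 76.6 CPM (median 18.5). Its relative Mycl stood at 0.690, 108 and 0 CPM and 0 to 6.33 CPM (median 0.265), and its fitted sign turned without normal 28. The normal mean of Mycl was 0.345 CPM without it and 36.4 CPM with it.

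Brakes on the cycle had no common direction. Of 23 inhibitors and p53 targets 13 were fitted higher and 10 lower (median log2 0.24, turning to -0.33 with DESeq2 size factors). The p53 target Cdkn1a (p21) stood at 18.4, 0.269 and 2.05 CPM in normal 18, 28 and 30 and 5.34 to 194 CPM (median 15.6) in carcinoma, and Cdkn1b (p27) at 7.59, 12.9 and 12.7 CPM and 8.34 to 65.1 CPM (median 32.03). The pocket protein Rbl1 stood at 11.4 ± 7.24 against 41.9 ± 66.7 CPM, normal mean 3.34 without 28, and its fitted sign turned without normal 28 and with limma voom. Cdkn2a, the locus of p16 and p19Arf, had no count in normal gland and 37 counts in carcinoma, and reached 1.77 CPM in carcinoma 54.

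Genes of protein synthesis were fitted slightly higher, nearly throughout the lists. Of 40 cytosolic ribosomal protein genes 39 were fitted higher (median log2 0.62), and 32 with DESeq2 size factors (median 0.19). Rpsa, a protein of the small subunit, had every carcinoma library above every normal one, at 768, 515 and 627 CPM in normal 18, 28 and 30 and 783 to 3124 CPM (median 900.4) in carcinoma. Rpl14 stood at 1187 ± 865 against 569.9 ± 162 CPM and Rpl10a at 654 ± 277 against 341 ± 112 CPM, both parts of the large subunit. These genes have many near-identical pseudogenes, and counts of such genes are uncertain because the handling of reads that align more than once is unknown here. Of 20 ribosome biogenesis genes 17 were fitted higher (median log2 0.57, 0.05 with DESeq2 size factors), with nucleophosmin (Npm1) at 367 ± 124 against 189 ± 82.3 CPM, the pseudouridine synthase Dkc1 at 134 ± 65.3 against 62.5 ± 27.3 CPM and its partner Nhp2 at 215 ± 122 against 104 ± 43.7 CPM.

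Energy and lipid metabolism followed the same side. Of 24 nuclear genes of oxidative phosphorylation 22 were fitted higher (median log2 0.72, 0.25 with DESeq2 size factors), with the complex I subunits Ndufb9 at 411 ± 191 against 189 ± 49.3 CPM and Ndufa2 at 757 ± 435 against 373 ± 159.6 CPM and the ATP synthase subunit Atp5a1 at 607 ± 208 against 305 ± 48.1 CPM. Of 16 glycolysis genes 11 were fitted higher (median log2 0.98, 0.55 with size factors). Aldolase (Aldoa) stood at 589.7, 193 and 359 CPM in normal 18, 28 and 30 and 436 to 3683 CPM (median 754) in carcinoma, lactate dehydrogenase (Ldha) at 599.7, 423 and 598 CPM and 322 to 2364 CPM (median 833), and the phosphofructokinase Pfkl at 73.5, 26.6 and 62.4 CPM and 69.6 to 224 CPM (median 134). Their carcinoma medians lay above the highest normal value and their lowest carcinoma values below it. Gapdh, which also has many pseudogenes, was listed at 2.28 ± 2.03 against 3.12 ± 3.16 CPM, normal mean 1.32 without 28 and is uncertain for the same reason. Of 25 fatty acid and sterol synthesis genes 21 were fitted higher (median log2 0.72, 0.26 with size factors, 13 higher and 12 lower). Scd2, Hmgcs1, which starts the sterol pathway, and Acly, which supplies acetyl-CoA, were the 3 of 25 members without overlap, beside 0.894% of all genes. Hmgcs1 stood at 17.6, 5.11 and 15.6 CPM and 20.2 to 91.95 CPM (median 48.02) and Acly at 99.7, 107 and 46.8 CPM and 113 to 335 CPM (median 143). The lipogenic regulator Thrsp stood at 351 ± 349.6 against 99.3 ± 45.8 CPM and Insig1, a sterol sensor, at 19.6 ± 16.03 against 2.16 ± 1.87 CPM.

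Genes of stress and protein turnover lay mostly on the higher side. Of 20 unfolded protein and amino acid stress genes 18 were fitted higher (median log2 0.72, 0.28 with DESeq2 size factors). Atf4, the factor that switches on amino acid synthesis under stress, stood at 76.8, 62.9 and 83.9 CPM in normal 18, 28 and 30 and 120.3 to 199 CPM (median 172) in carcinoma, and its target Asns, asparagine synthetase, at 0.690, 7.80 and 14.98 CPM and 17.99 to 108 CPM (median 35.9). Atf4 and Asns were the 2 of 20 members without overlap between the groups, beside 0.894% of all genes. The edgeR adjusted p was 0.614 for Atf4 and 0.552 for Asns. Heat shock chaperones were fitted higher in 13 of 15 cases (median log2 0.70, 0.21 with size factors), with the mitochondrial chaperonin Hspd1 at 80.4 ± 27.3 against 26.8 ± 10.7 CPM, Hsp90aa1 at 504 ± 166 against 252 ± 108 CPM and Hspa8 at 306 ± 87.1 against 185 ± 58.9 CPM. Of 25 proteasome genes 24 were fitted higher (median log2 0.55, 0.10 with size factors), with the core subunits Psma1 at 149 ± 86.4 against 55.9 ± 41.7 CPM, normal mean 35.6 without 18 and Psmb1 at 288 ± 109.5 against 139 ± 58.99 CPM. Oxidative stress and iron genes were split 10 to 9 (median log2 0.31, turning to -0.18 with DESeq2 size factors), with transferrin (Trf) at 7169 ± 4109 against 3275 ± 1218 CPM and its receptor Tfrc at 121 ± 60.01 against 38.1 ± 18.5 CPM. Immediate early genes, which cells induce within minutes of a stimulus, were fitted higher in 16 of 21 cases (median log2 0.45, turning to -0.08 with size factors), with the nuclear receptor Nr4a1 at 9.14, 2.96 and 21.95 CPM in normal gland and 5.93 to 277 CPM (median 38.3) in carcinoma.

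Hypoxia genes split between targets that were high in some carcinoma regions and others that were not. Of 16 members 10 were fitted higher and 6 lower (median log2 0.28, turning to -0.07 with DESeq2 size factors). Egln3, an oxygen-sensing hydroxylase, stood at 15.2, 6.46 and 3.49 CPM in normal 18, 28 and 30 and 24.1 to 306 CPM (median 60.2) in carcinoma, without overlap. Ankrd37, a further target of the hypoxia factor, had no count in normal gland and 0.464 to 17.7 CPM (median 4.87) in carcinoma, at least 44-fold higher against the floor of 3 counts. Egln3 and Ankrd37 were the 2 of 16 members without overlap, beside 0.894% of all genes. The vasodilator peptide Adm stood at 0.776, 0 and 1.03 CPM and 0 to 116 CPM (median 0.397), and the top value was that of carcinoma 06. Carcinoma 37 held the highest sum of the hypoxia list, 1243 CPM, against a carcinoma median of 360.2 CPM and 443, 375 and 268 CPM in normal gland.

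**Figure D3:**
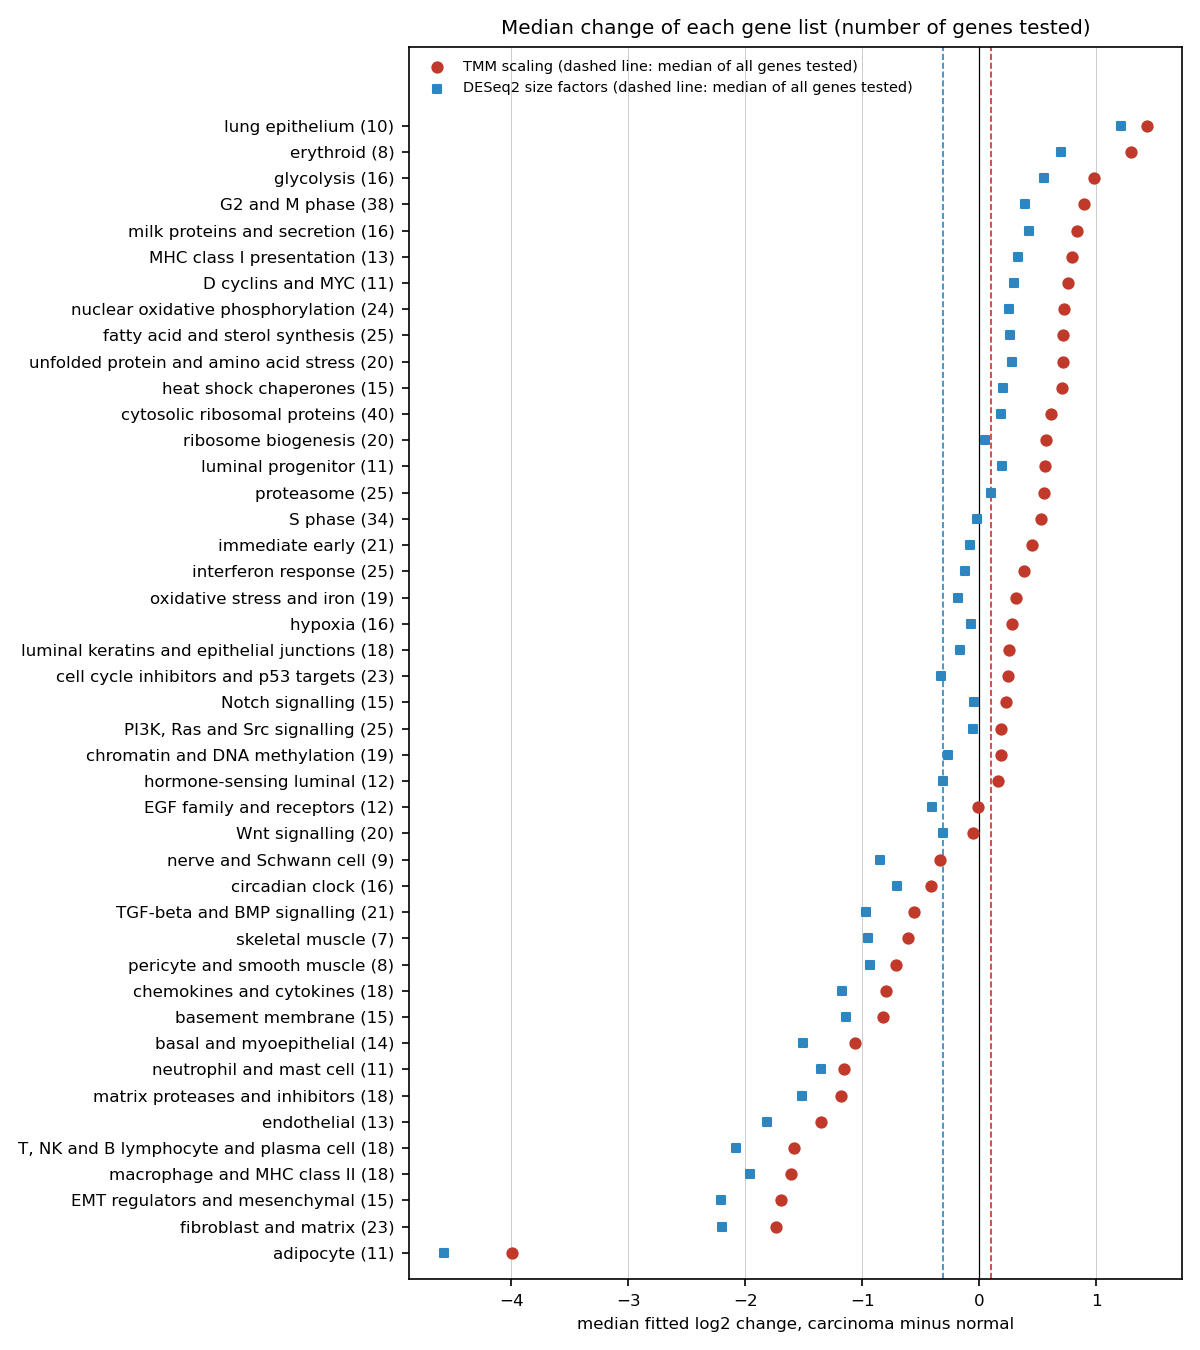
Median log2 difference, carcinoma minus normal, of the 44 gene lists under TMM scaling (dots) and under DESeq2 size factors (squares), with dashed lines at the medians of all genes, 0.10 and -0.31. The adipocyte, fibroblast and matrix and epithelial-mesenchymal transition lists lie farthest to the left of both lines, and the size factors move nearly every list to the left together with all genes.

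The list of PI3-kinase, Ras and Src signalling and the EGF, Notch and Wnt lists had medians near that of all genes, and the TGF-beta list was mostly fitted lower. Of 25 genes of PI3-kinase, Ras and Src signalling 15 were fitted higher and 10 lower (median log2 0.19, turning to -0.06 with DESeq2 size factors). The feedback inhibitor Spry2 stood at 34.1 ± 32.8 against 14.9 ± 8.69 CPM, the Ras activator Sos1 at 15.5 ± 12 against 38.5 ± 27.3 CPM, normal mean 22.7 without 28 and the PI3-kinase regulatory subunit Pik3r1 at 142 ± 54.2 against 272 ± 102 CPM. EGF receptors and ligands were split 6 to 6 (median log2 -0.01, -0.40 with size factors), with the receptor Erbb2 at 63.8, 44.4 and 83.7 CPM in normal 18, 28 and 30 and 26.02 to 174 CPM (median 54.6) in carcinoma, with a sign that turned in 15 of the 25 alternatives. The ligands Btc and Tgfa stood at 2.60 ± 4.26 against 10.6 ± 6.96 CPM, normal mean 6.81 without 30, carcinoma mean 1.26 without 38 and 9.03 ± 9.57 against 29.9 ± 33.1 CPM, normal mean 12.02 without 28, and Errfi1, an inhibitor of the receptors, at 106 ± 75.1 against 41.3 ± 9.59 CPM. The Notch list had 10 of 15 genes fitted higher (median log2 0.23, turning to -0.05 with size factors), with the receptor Notch3 at 46.5 ± 54.6 against 22.4 ± 6.78 CPM, carcinoma mean 29.1 without 53 and the targets Hey1 above and Hey2 below, at 223 ± 162 against 63.1 ± 15.5 CPM and 0.795 ± 1.44 against 5.81 ± 1.73 CPM. The Wnt list had 9 of 20 fitted higher (median log2 -0.05, -0.31 with size factors), with beta-catenin (Ctnnb1) at 268 ± 121 against 124 ± 35.4 CPM, the ligand Wnt5b at 61.1 ± 46.9 against 141 ± 70.3 CPM and the agonist Rspo1 at 0.251 ± 0.706 against 5.32 ± 4.25 CPM, normal mean 3.54 without 28. TGF-beta and BMP genes were fitted lower in 16 of 21 cases (median log2 -0.56, -0.97 with size factors), and the median stayed -0.85 to -0.38 from that of all genes. The summed level of this list was not lower, at 1051, 939 and 951 CPM in normal 18, 28 and 30 and 757 to 1513 CPM (median 1056) in carcinoma. The ligand Bmp7 stood at 2.93, 14.5 and 14.4 CPM and 0 to 2.56 CPM (median 0) without overlap. The activin chain Inhba stood at 0.604, 112 and 2.46 CPM and 0 to 3.59 CPM (median 0.232), with a normal mean of 38.3 CPM, or 1.53 CPM without its highest library. The inhibitory factor Id2 stood at 486 ± 180.3 against 232 ± 78.9 CPM.

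Markers of immune cells were mostly fitted lower in carcinoma, and normal 18 alone held the high level of the macrophage list. All 18 macrophage and MHC class II genes were fitted lower (median log2 -1.61, -1.96 with DESeq2 size factors). Their sum was 5347, 757 and 1195 CPM in normal 18, 28 and 30 and 172 to 1979 CPM (median 601) in carcinoma, so only normal 18 stood above the carcinoma range. Lysozyme (Lyz2) stood at 1740.3, 39.3 and 60.9 CPM and 0 to 148 CPM (median 9.81). Its normal mean was 614 CPM, or 50.1 CPM without normal 18. The receptor adaptors Tyrobp and Fcer1g stood at 483, 13.2 and 52.7 CPM and 412, 1.08 and 23.6 CPM in normal gland and at 2.78 to 53.2 CPM (median 18.6) and 1.85 to 32.5 CPM (median 13.8) in carcinoma. The fitted sign of Fcer1g turned without normal 18, which left a normal mean of 12.3 CPM. The class II chaperone Cd74 stood at 218 ± 216 against 332 ± 126 CPM.

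Of 18 lymphocyte and plasma cell genes 14 were fitted lower (median log2 -1.58). Mzb1, of antibody-secreting cells, stood at 32.9, 35.8 and 7.80 CPM in normal 18, 28 and 30 and 0 to 6.65 CPM (median 0.674) in carcinoma, all carcinoma values being lower, and the pan-leukocyte phosphatase Ptprc (CD45) at 78.7, 48.4 and 61.4 CPM and 0.111 to 56.3 CPM (median 12.9). Pigr, by which epithelium carries antibodies into milk, lay on the higher side without overlap, at 77.3, 139 and 111 CPM and 143 to 2349.9 CPM (median 491). It is an epithelial gene within this list. Of 11 neutrophil and mast cell genes 9 were fitted lower (median log2 -1.16). The calprotectin chain S100a8 stood at 389, 145 and 74.7 CPM and 0 to 53.7 CPM (median 17.4) without overlap, whereas its partner S100a9 was listed at 1.13 ± 2.24 against 0.593 ± 0.495 CPM, carcinoma mean 0.509 without 38. Lactoferrin (Ltf), which epithelium also makes, stood at 622, 288 and 822 CPM and 141 to 2035 CPM (median 220.4), with carcinoma 39 highest. Chemokines and cytokines were fitted lower in 11 of 18 cases (median log2 -0.80). Osteopontin (Spp1), a secreted phosphoprotein of epithelium and macrophages, stood at 8512, 2835 and 2584 CPM and 28.1 to 3627 CPM (median 726), the membrane chemokine Cx3cl1 at 36.6 ± 30.4 against 98.8 ± 35.9 CPM and Ccl7, which attracts monocytes, at 0.326 ± 0.459 against 16.9 ± 14.7 CPM. Normal 18, the library of highest macrophage sum, also had the highest Spp1, and the part of macrophages in that value was not tested.

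Genes that present peptides on MHC class I were mostly fitted higher, with carcinoma regions far apart. MHC class I molecules display fragments of the cell's own proteins to cytotoxic T cells, the immunoproteasome subunits Psmb8 and Psmb9 cut those fragments, and Tap1 pumps them to the site of loading. Of 13 members 12 were fitted higher and 1 lower (median log2 0.79, 0.33 with DESeq2 size factors), and no member was called. The heavy chain H2-K1 stood at 632, 758 and 836 CPM in normal 18, 28 and 30 (log2 1.77, SE 0.98, edgeR adjusted p = 0.634). In carcinoma it stood at 2980.4 CPM in 06, 363 in 37, 188 in 53, 3987 in 07, 318 in 38, 6857 in 54, 636 in 08, 3449 in 39 and 3969.6 in 55. The levels in 37, 53 and 38 lay below all normal values, that in 08 within their range and those in the other 5 above it.

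The promoters of H2-K1, H2-D1 and the light chain B2m are shown because these genes had their 4 lowest carcinoma values in the same regions. They are taken from RefSeq on GRCm38.p6, from 250 bases before to 50 after the transcript start, 5′ to 3′ on the gene's strand, at chr17:34000298-34000597 (minus strand), chr17:35262844-35263143 (plus strand) and chr2:122147437-122147736 (plus strand). Capitals mark matches on either strand to GGGGATTCC, from the kB site of class I genes, GAAANNGAA, from the interferon response element, and TGACG, the core bound by factors of the CREB type.
H2-K1: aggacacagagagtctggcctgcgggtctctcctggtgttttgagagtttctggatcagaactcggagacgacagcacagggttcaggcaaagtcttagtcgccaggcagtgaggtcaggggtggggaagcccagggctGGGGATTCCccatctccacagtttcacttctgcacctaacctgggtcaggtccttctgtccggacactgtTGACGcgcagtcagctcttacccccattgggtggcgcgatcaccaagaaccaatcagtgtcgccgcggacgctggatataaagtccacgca
H2-D1: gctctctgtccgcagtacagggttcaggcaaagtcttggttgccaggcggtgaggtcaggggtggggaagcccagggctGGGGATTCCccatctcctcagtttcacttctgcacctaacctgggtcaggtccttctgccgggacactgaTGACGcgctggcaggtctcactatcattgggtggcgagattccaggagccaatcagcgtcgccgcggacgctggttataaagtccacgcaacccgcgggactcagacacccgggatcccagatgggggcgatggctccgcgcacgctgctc
B2m: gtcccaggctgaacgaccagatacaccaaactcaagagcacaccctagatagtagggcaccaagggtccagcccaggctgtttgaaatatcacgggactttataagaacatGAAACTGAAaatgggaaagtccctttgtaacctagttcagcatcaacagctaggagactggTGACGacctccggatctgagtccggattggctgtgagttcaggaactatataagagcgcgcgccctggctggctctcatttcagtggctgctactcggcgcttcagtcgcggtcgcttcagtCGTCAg
The letters GGGGATTCC stand in H2-K1 and H2-D1, 2 of the 11 class I members with a promoter in the table, and in 0.259% of 27025 RefSeq promoters of this length. They were taken from class I genes, so their presence in such genes was set beforehand and is no result of these data. The letters GAAANNGAA stand in 3 of the 11, B2m included, and in 8.57% of all, and TGACG in 6 of the 11 and in 21% of all. These patterns too were chosen for this class I list, and no share was tested against that of all promoters. All marked stretches are exact matches of letters, and binding was not measured. Sites of the same kinds with other letters are not marked or counted, so a promoter without a match may still hold such a site.

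Carcinoma 37, 53, 38 and 08 held the 4 lowest carcinoma values in 10 of the 13 class I members, a pattern picked out after the values were seen. B2m stood at 231, 96.7, 128 and 212 CPM in those regions, against 1090.5, 738 and 434 CPM in normal 18, 28 and 30, and at 1824, 2243, 3582, 2025 and 1601 CPM in 06, 07, 54, 39 and 55. Psmb8 stood at 31, 69.4, 76.5 and 248 CPM in the former, in the order given, and at 664, 567.5, 1281, 572 and 768 CPM in the latter. Carcinoma 54 was the highest library for both. Tap1 ranged from 27.1 to 544 CPM (median 129) beside 31.1, 43.8 and 52.7 CPM in normal gland. Psmb9, the regulator Nlrc5 and the trimming peptidase Erap1 were the 3 members with another order. Macrophages are rich in class I molecules, and the macrophage sum was 172, 494, 197 and 247 CPM in carcinoma 37, 53, 38 and 08. It was 601, 1318, 1896, 1979 and 689 CPM in 06, 07, 54, 39 and 55. Its part in the class I levels was not tested. The labels give red reporter colour for 37, 53, 38, 08 and 55, green for 06 and yellow for 07, 54 and 39, so carcinoma 55 had a red label and high class I levels. H2-K1 and H2-D1 are near copies of each other and of other class I genes, which makes the split of reads between them uncertain.

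**Figure D4:**
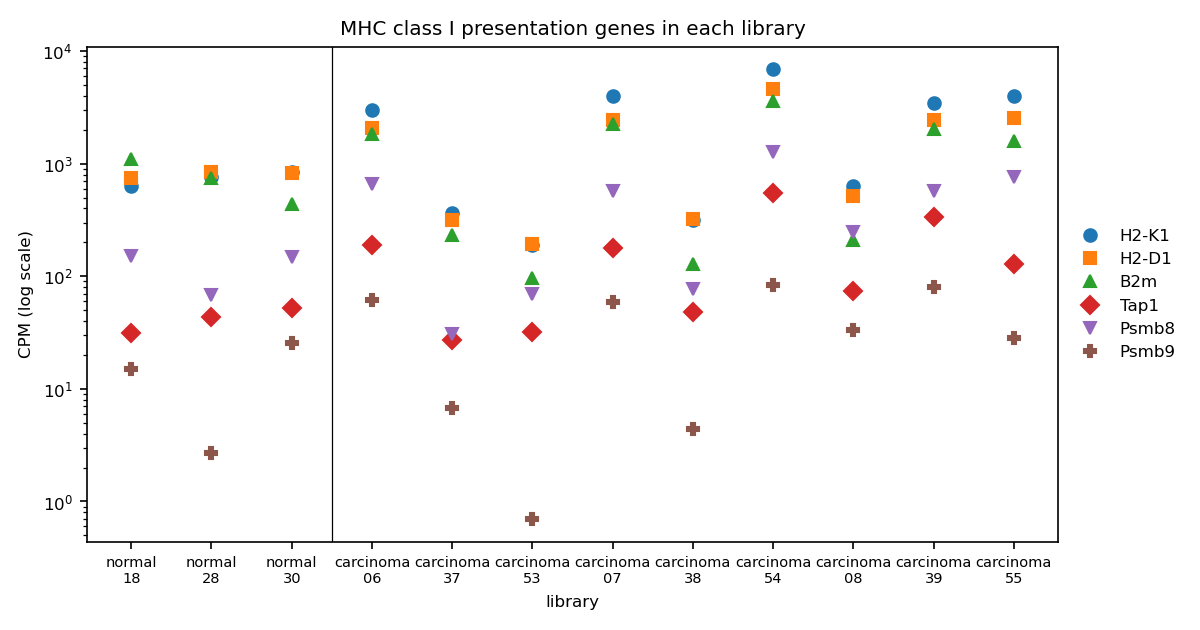
CPM of H2-K1, H2-D1, B2m, Tap1, Psmb8 and Psmb9 in the 12 libraries, on a log scale, with libraries in the order of their records and 1 marker per gene. Among the carcinoma libraries, 37, 53, 38 and 08 have the 4 lowest markers of H2-K1, H2-D1, B2m, Tap1 and Psmb8, though 08 lies above every normal library for Tap1 and Psmb8, and those of carcinoma 54 lie at the top.

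Interferons induce class I genes together with a wider response. Interferon response genes were fitted higher in 19 of 25 cases (median log2 0.39, turning to -0.13 with DESeq2 size factors). Ifit1, a sensor of viral RNA, stood at 23.7, 29.9 and 9.44 CPM in normal 18, 28 and 30 and 2.32 to 153 CPM (median 33.2) in carcinoma. Oasl1, a further interferon-induced gene, stood at 31.1, 3.50 and 55.8 CPM and 0 to 10.3 CPM (median 3.29). The groups overlapped for both genes, and for Ifit1 the carcinoma libraries spanned the normal range.

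The remaining lists had small medians or rested on few counts. Chromatin and DNA methylation genes were fitted higher in 13 of 19 cases (median log2 0.18, turning to -0.26 with DESeq2 size factors), with the demethylase Kdm1a at 56.6 ± 23.7 against 24.6 ± 10.8 CPM and Tet3, which oxidises methylated cytosine, at 32.8 ± 24.4 against 12.2 ± 11.3 CPM, normal mean 6.61 without 30. Circadian clock genes were fitted lower in 11 of 16 cases (median log2 -0.41), and the median stayed -0.75 to -0.09 from that of all genes. The clock output factor Dbp stood at 0.259, 0.269 and 0 CPM in normal gland and 0.337 to 27.7 CPM (median 10.2) in carcinoma, without overlap, whereas the clock repressors Nr1d1 and Bhlhe41 stood at 0.952 ± 1.10 against 7.19 ± 11.6 CPM, normal mean 0.513 without 18 and 37.4 ± 34.9 against 109 ± 32.1 CPM, and the fitted sign of Nr1d1 turned without normal 18. The labels used here do not give the time of day of collection. Erythroid genes were fitted higher in 7 of 8 cases (median log2 1.30), with the globin Hbb-bs at 0.0863, 1.88 and 78.6 CPM and 0 to 355 CPM (median 31.6). The alpha globin genes Hba-a1 and Hba-a2 are near-identical copies with nearly the same values, and are uncertain as separate genes. Lung epithelium genes, a check on tissue outside the gland, were split 6 to 4 (median log2 1.43, 1.21 with size factors) with a sum of 0.253 to 52.3 CPM (median 7.59) in carcinoma and 43.6, 13.7 and 21.95 CPM in normal gland. The surfactant genes Sftpa1, Sftpb and Sftpc and the lung factor Nkx2-1 had no count in normal gland and means of 0.0706 to 0.724 CPM in carcinoma. Hopx, a homeobox protein, stood at 0, 0 and 0.205 CPM and 0 to 39.1 CPM (median 0.118). Nerve and Schwann cell genes were split 4 to 5 (median log2 -0.34), with the myelin protein Mbp at 21.9 ± 16.3 against 65.6 ± 87.1 CPM, normal mean 15.6 without 28. The fitted sign of Mbp turned without normal 28.

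Carcinoma was then set against the mean of hyperplasia and adenoma, the earlier lesions of mice of the same genotype, to see for each gene whether its level differed between those stages. The contrast shares the carcinoma libraries with the comparison above. No gene was called by edgeR (0 of 19907, or 0%, smallest adjusted p = 0.101), and 2479 genes had an unadjusted p under 0.05, 1803 higher and 676 lower in carcinoma. By the Wald test of DESeq2, 286 genes rose and 77 fell, and by limma voom 7 and 1. Cfd stood at 1.88 CPM in hyperplasia (mean, n = 5, highest 9.42), had no count in adenoma (n = 8), and stood at 0.0291 CPM in metastasis (n = 7). Its difference between carcinoma and the earlier lesions was log2 -0.28 (edgeR adjusted p = 0.862). Aqp5 averaged 635 CPM in hyperplasia, 883 in adenoma and 469 in metastasis beside 945 in carcinoma. Kcnn4 averaged 722, 1012 and 524 CPM beside 1103. The ranges of hyperplasia and adenoma lay within that of carcinoma for Aqp5, and hyperplasia reached slightly lower for Kcnn4 (387 against 417 CPM). Ttpa averaged 120.2 CPM in hyperplasia, 65.8 in adenoma and 49.1 in carcinoma, all above its normal mean of 7.22 CPM. Col3a1 averaged 57.7, 41.9 and 68.4 CPM in the same order beside 394 CPM in normal gland. H2-K1 averaged 1109.9 and 1184 CPM in hyperplasia and adenoma and 2528 CPM in carcinoma (log2 1.14 over the earlier lesions, edgeR adjusted p = 0.411).

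**Figure D5:**
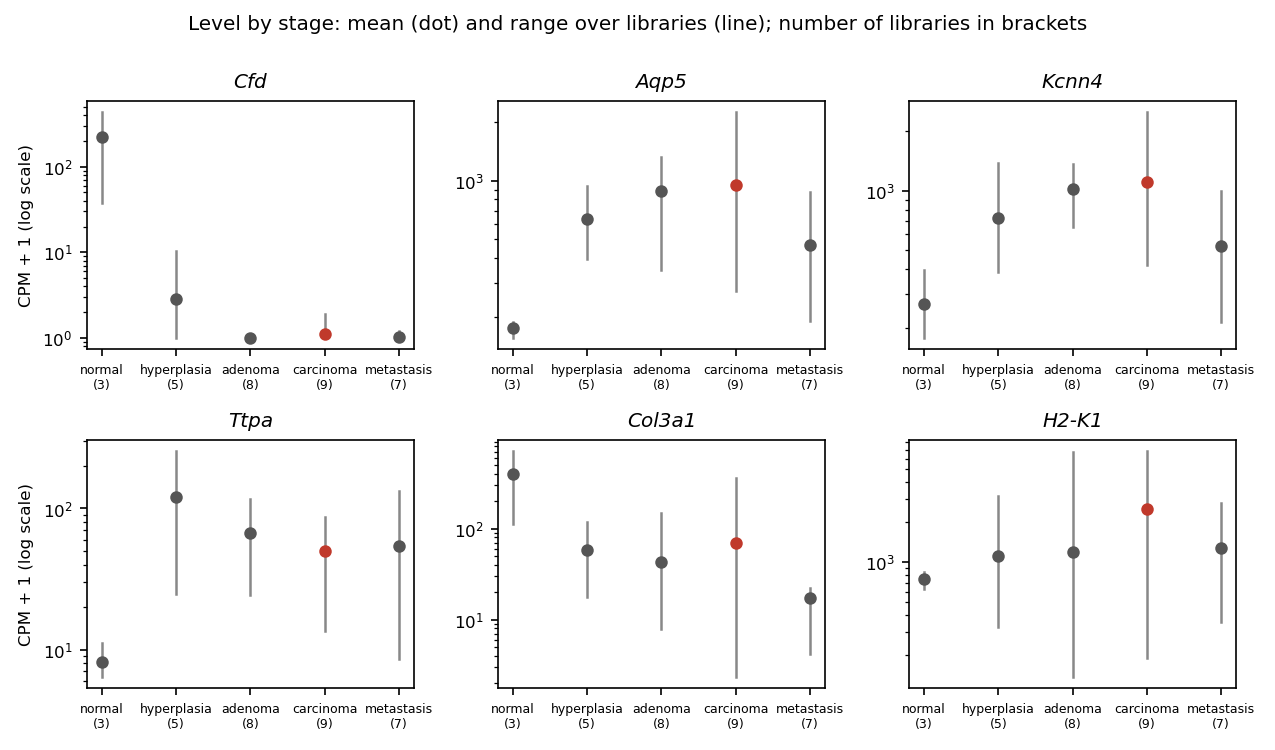
CPM + 1 of Cfd, Aqp5, Kcnn4, Ttpa, Col3a1 and H2-K1 in the 5 stages on a log scale, with a dot at the stage mean and a line over the range of its libraries. Normal gland stands apart from all lesions for Cfd, and the 4 lesion stages overlap for each gene shown.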

How the data were processed

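RNA of laser-captured regions was reverse transcribed from the poly-A end and amplified by PCR, per the labels' protocols, which name no molecular identifiers, so counts are not taken as independent molecules. The authors deposited a table of raw counts, whole numbers for 24454 gene IDs in 32 libraries. Reads were aligned with STAR to mm10, per the submitters' processing notes. The counting program, its use of strand and its handling of multiply aligned reads were not given in the sources used here. Symbols and positions came from RefSeq on GRCm38.p6, which held 24374 of the IDs and lacked 80.

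Libraries were grouped by the stage label. Counts were filtered by filterByExpr on stage (19907 genes kept), scaled by TMM and fitted over all 32 libraries with 1 term per stage by the edgeR quasi-likelihood model, with two-sided tests and a Benjamini-Hochberg threshold of 0.05. SE is the size of the log2 difference over the square root of F. The fits ran in edgeR 4.0.16, with DESeq2 1.42.0 and limma 3.58.1 for alternatives, in R 4.3.3. Tables were made in Python 3.11.15 with pandas 2.3.3. The model was tested on simulated data. The labels name no sequencing batch. Total counts per library run from 3002492 to 19564392 over the 12 libraries compared, and floors cover counting error only.

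The members and lists were chosen with earlier results of these data known. Genes were named by rule: up to 12 called genes of largest change each way, filled up to 8 by smallest p where fewer were called (a mean of 20 CPM or above in the group of higher level, and 10 counts or more in 75% of that group), then the 3 members of smallest p of each of 44 lists that reach 5 CPM in either group, and a set of mammary and proliferation genes. Members that complete a count of 5 or fewer, and the genes beyond this rule (Fabp4, Plin1, Plin4, Lipe, Itgb4, Itga6, Mfge8, Tacc3, Gapdh, S100a9, B2m, Psmb9 and the like) were picked once their values were known. The lists hold 766 distinct tested genes, and a few named by the rule are not reported here. They are described by counts and medians, without a test. Other settings covered scaling, tool, filter, samples in the fit, a covariate and each library left out, and 2 were chosen after seeing the data (without libraries of fewer than 11000 detected genes, and only genes that average 20 CPM).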

Additional observations from a re-analysis of the deposited data

Results flagged for a closer look

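Among 163 named genes, 44 list sums and the number of detected genes, 22 of these 208 items had a carcinoma library that stood apart, meaning that its gap to the nearest of the other 8, on the log2(CPM + 1) scale, exceeded 0.493 of the whole range. Chance flags about 1 in 20 groups, and the items overlap. The 21 that are reported here follow. In 5 genes 1 library held the only carcinoma counts, a ratio of 1.0: Cfd, Wfdc12 and Car3 in carcinoma 07, Olfr787 in carcinoma 37 and Dbx1 in carcinoma 53.

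Carcinoma 07 was also highest for Gje1 (0.767), Rspo1 (0.891) and Rpl14 (0.510). Carcinoma 39 was highest for Ltf (0.640), for the basal and myoepithelial sum (0.606) and for the neutrophil and mast cell sum (0.667), a list that holds Ltf. Hey2 was highest in carcinoma 08 (0.623), Adm in carcinoma 06 (0.560), Cdkn2a in carcinoma 54 (0.634) and the hypoxia sum in carcinoma 37 (0.687).

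Carcinoma 53 was lowest for Errfi1 (0.525), Hspd1 (0.549) and Cdh1 (0.589). Carcinoma 38 was lowest for Cd24a (0.518) and for the luminal progenitor sum (0.497), and carcinoma 37 was lowest for Trf (0.570).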

How the results depend on the processing

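Under 25 alternatives no called value reversed. Beside 1 gene lower and 0 higher in carcinoma by edgeR, 2 genes were lower with DESeq2 size factors, 2 with total counts, 2 without the filter and 2 without the libraries of fewer than 11000 detected genes, 7 with only the 12 libraries in the fit, and 0 with 10 counts required in 9 libraries, with the number of detected genes as covariate and with the carcinoma core only (smallest adjusted p 0.172, 0.0783 and 0.163, with 703, 1873 and 1371 genes at an unadjusted p under 0.05). The filter of 10 counts in 9 libraries removed Cfd before the test, so the 0 there cannot bear on its call. The DESeq2 Wald test called 58 lower and 119 higher, and limma voom 308 lower and 8 higher. Leaving out each library in turn gave 0 to 1 gene lower, with 0 only without normal 18. Against the earlier lesions, beside 0 genes, DESeq2 called 286 higher and 77 lower, voom 7 and 1, and the covariate 1 and 1. The difference in detected genes was -1752 at a CPM of at least 1 (exact permutation p = 0.0182). At 5 counts or more it was -987.9 (exact permutation p = 0.173), and with any count -1377 to -739.8 without a library. A CPM of 1 stands for fewer counts in a library of low total, and normal 28 and 30 had the lowest totals of the 12. The part of depth in the value of -1752 was not tested. Of 163 named genes 144 kept their sign throughout, and 29 of 44 list medians stayed on their side of the median of all genes, which ran from -0.40 to 0.31. Among single genes and lists, 108 values moved by more than their SE and 98 list medians by more than 1 SD of the list's mean level in carcinoma, while 3891 and 1000 did not. The lists of endothelial and skeletal muscle genes had no member left at a mean of 20 CPM, so no median there. No paired analysis was possible because the labels tie no region to an animal. By depth alone, no count in a group allows up to 0.0284 CPM in carcinoma and 0.149 CPM in normal gland.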

Other observations

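Of 609 olfactory receptor genes tested, which code for receptors of smell, 113 had a lower and 10 a higher level in carcinoma at an unadjusted p under 0.05, or 18.6% and 1.64%, beside 5.72% and 2.45% of all genes. By edgeR over all 32 libraries none was called, and Olfr787 was called under other settings, as given above. In 91 of the 113 a single normal library held over 75% of the normal level, as it did in 787 of the 1138 lower ones over all genes. Over all genes, those lower at that p had a median level of 2.62 CPM over all libraries and a median log2 of -5.43, those higher 49.96 CPM and 2.22. No count in any carcinoma library was found for 149 of the 1138 lower ones.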
